A study of Nothobranchius furzeri with 15 samples.

Results

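The 200 genes described here are those whose level differed most from sample to sample in the skin of turquoise killifish (Nothobranchius furzeri) kept in solvent only. They were chosen by their coefficient of variation (CV, the standard deviation divided by the mean) over the 5 samples given dimethyl sulfoxide (DMSO). The choice was made among genes with a mean of at least 10 CPM (the count of a gene scaled to library size) in DMSO, after the 100 most abundant genes had been left out. Of the 26739 genes in the count table, 9504 could have been chosen. The CV of the members in DMSO ran from 1.59 to 2.23 with a median of 2.08, and these values chose the members and are a description only. Over all 9504 eligible genes the median CV in DMSO was 0.113. The largest CV that 5 values can have is 2.24, which is reached when a gene is present in a single sample.

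All 15 samples were skin of male fish aged 9 weeks. They were of GRZ, an inbred strain kept in laboratories. Each of 3 groups held 5 samples: DMSO, 15 pM rotenone and 150 pM rotenone. Rotenone blocks complex I of the mitochondrial respiratory chain, and DMSO was the solvent. Whether the samples came from separate fish is not stated in the labels. The p-values thus weigh differences between groups against the scatter of these samples, and that scatter may be technical.

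Fish skin is a layered organ. Its epidermis holds keratinocytes, mucus-secreting cells and immune cells, and its dermis carries scales, pigment cells, vessels and nerves and lies on muscle. RNA of a skin piece is therefore a mixture, and a gene of one cell type changes in such bulk RNA when that cell type takes another share of the piece or when its cells hold another amount of that RNA. In bulk samples fewer cells of a type and less RNA per cell cannot be told apart.

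Total counts were 21857670 to 28314659 per sample, with a median of 24600127. At the depth of the DMSO samples, counting error alone gives a CV of about 0.0643 to a gene at 10 CPM. The files give numbered gene identifiers without names, and 0 of the 26739 identifiers matched the 38438 genes of the RefSeq name table used here, so no member could be given a name, a function or a cell type, and the labelled tissue could not be checked against marker genes. For the same reason, whether the samples differed in the cells or tissues they held was not tested, and this bears on all levels and fold changes given here. Members are called by their rank of CV in DMSO, and 4 of them also by identifier. One library stands apart from its group over the eligible genes as a whole: 15 pM replicate 4 had the highest level of its group in 37.1% of the 9504 eligible genes, against 12.2% to 24.8% for the other 15 pM samples.

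The spread of the members came from very few DMSO samples. DMSO replicate 3 had the highest level of the group for 118 members, DMSO replicate 5 for 80 members and DMSO replicate 1 for 2 members, while DMSO replicates 2 and 4 were highest for 0 members. Among all eligible genes each of the 5 DMSO samples was highest for 17.5% to 22.1%. The 118 genes are called the DMSO replicate 3 set and the 80 genes the DMSO replicate 5 set below. In a typical member a single sample held nearly the whole signal of the group: the highest sample carried a median of 94.2% of the CPM summed over the 5 DMSO samples, from 74.3% to 99.9%. The highest sample exceeded the second highest by a median factor of 33.9, and by over 10-fold in 185 of the 200 members. All of this follows in part from choosing by CV.

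**Figure D1:**
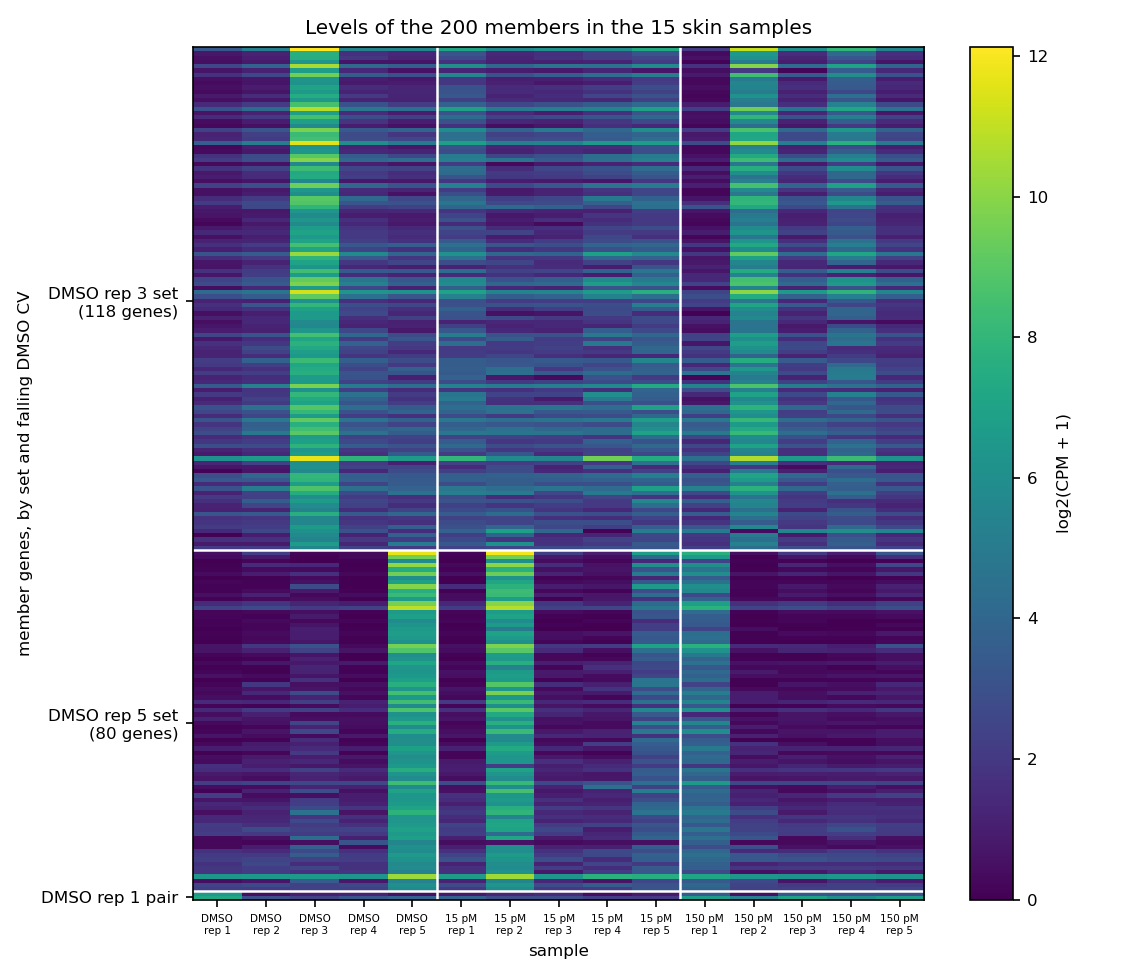
Level of each of the 200 members (rows, by set and falling CV in DMSO) in each of the 15 samples (columns, from DMSO over 15 pM to 150 pM), as log2(CPM + 1) by colour. The 118 genes of the DMSO replicate 3 set are bright in that sample and in 150 pM replicate 2, and the 80 genes of the DMSO replicate 5 set are bright in that sample and in 15 pM replicate 2, with weaker bands in 150 pM replicate 1 and 15 pM replicate 5.

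The DMSO replicate 5 set was seen again in samples that the choice did not use. The member with the highest CV had 0.430, 3.64, 0.157, 0.245 and 3233 CPM in DMSO replicates 1 to 5. It had 0.114, 3887, 3.69, 0.904 and 110.2 CPM in 15 pM replicates 1 to 5. It had 202.9, 0.363, 3.03, 0.989 and 8.34 CPM in 150 pM replicates 1 to 5. One sample of each group was thus far above the rest of its group, and the 3 groups overlapped.

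The whole set followed the same samples. 15 pM replicate 2 was the highest 15 pM sample for 80 of the 80 genes, where it was highest for 12.8% of all eligible genes. 150 pM replicate 1 was the highest 150 pM sample for 79 of the 80, where it was highest for 16% of all eligible genes. For 70 of the 80 genes the 4 highest of the 15 samples were DMSO replicate 5, 15 pM replicate 2, 150 pM replicate 1 and 15 pM replicate 5. For 64 genes 150 pM replicate 1 ranked 3 among the 15.

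Each gene's CPM was also expressed as a percentage of its own CPM in DMSO replicate 5. The median over the 80 genes was 111% in 15 pM replicate 2, with quartiles of 96.5% and 125%. It was 7.71% in 15 pM replicate 5 (quartiles 4.95% and 13.1%) and 17.1% in 150 pM replicate 1 (quartiles 11.8% and 21.4%). In the other samples the median was 0.221% to 1.49% in DMSO, 0.443% to 0.621% at 15 pM and 0.366% to 0.704% at 150 pM. The set's summed level showed the same steps: 19723 CPM in DMSO replicate 5 against 162 to 325 CPM in the other DMSO samples, 21291 CPM in 15 pM replicate 2 and 1419 CPM in 15 pM replicate 5 against 193 to 344 CPM in the other 15 pM samples, and 2517 CPM in 150 pM replicate 1 against 172 to 205 CPM in the other 150 pM samples. The level was therefore graded over 4 samples, 1 of DMSO, 2 of 15 pM and 1 of 150 pM, with the other 11 samples low. In some low samples a single gene gave much of the sum. Its level was 85.9 of 162 CPM in DMSO replicate 1 and 210.5 of 344 CPM in 15 pM replicate 4.

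In the low samples many genes of this set were at the limit of detection. DMSO replicate 1 had fewer than 10 counts in 40 of the 80 genes and 0 counts in 7, and DMSO replicate 4 had fewer than 10 counts in 37 and 0 counts in 9. DMSO replicate 5 had a median of 2777 counts per gene of the set. Ranked by CPM per kilobase of gene within a sample, 37 of the 80 genes were among the 1000 highest genes in DMSO replicate 5, 38 in 15 pM replicate 2, 6 in 150 pM replicate 1, and 0 in DMSO replicate 1. The 3 samples with the most of this set were also those with the most genes detected: 21505 genes had at least 1 count in DMSO replicate 5, 21311 in 15 pM replicate 2 and 21402 in 150 pM replicate 1, against 20723 to 21144 in the other samples. However, 15 pM replicate 5, which ranked next for this set, had 20723, the fewest genes detected of all samples. The part of genes detected in the result was not tested.

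The relative amounts of the 80 genes were similar in the samples where they were high. Genes are not independent replicates, and correlations across them are a description. Log2(CPM + 0.1) in 15 pM replicate 2 and DMSO replicate 5 had a Pearson correlation of 0.80 and a Spearman correlation of 0.85. For 150 pM replicate 1 and DMSO replicate 5 the values were 0.81 and 0.71, and for 15 pM replicate 5 they were 0.77 and 0.69. The ratio to DMSO replicate 5 lay within 2-fold of its median for 69 of 80 genes in 15 pM replicate 2, for 69 in 150 pM replicate 1 and for 58 in 15 pM replicate 5. All compared samples share DMSO replicate 5, and genes were chosen to be high in it.

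A few genes left the pattern of the set. The member of rank 174 had 46.5 CPM in DMSO replicate 5 and 8.0 CPM in DMSO replicate 4, but 0.513 CPM in 15 pM replicate 2 and 11.8 CPM in 150 pM replicate 1. The member of rank 83 had 88.8 CPM in DMSO replicate 5 and 3.59 CPM in 15 pM replicate 2. These 2 of the 80 genes were below 10% of their DMSO replicate 5 level in 15 pM replicate 2.

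The DMSO replicate 3 set had its own partner sample among the rotenone samples. Its member with the highest CV, at rank 42, had 9.21, 37.2, 4479, 41.6 and 44.4 CPM in DMSO replicates 1 to 5. It had 136.8, 49.3, 69.2, 61.0 and 162 CPM in 15 pM replicates 1 to 5. It had 3.12, 2173, 65.5, 258 and 43.3 CPM in 150 pM replicates 1 to 5. DMSO replicate 3 and 150 pM replicate 2 stood above all others, and the 15 pM samples differed by less.

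150 pM replicate 2 was the highest 150 pM sample for 113 of the 118 genes and 150 pM replicate 4 for the other 5, while these samples were highest for 27.5% and 19.5% of all eligible genes. For 112 of the 118 genes DMSO replicate 3 and 150 pM replicate 2 were the 2 highest of all 15 samples, and for 72 genes 150 pM replicate 4 ranked 3. At 15 pM no sample led the set: replicate 1 was highest for 45 genes, replicate 5 for 43, replicate 2 for 16, replicate 4 for 14 and replicate 3 for 0.

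As a percentage of the gene's own CPM in DMSO replicate 3, the median over the 118 genes was 46.1% in 150 pM replicate 2, with quartiles of 39.1% and 51.6%. It was 9.42% in 150 pM replicate 4 (quartiles 6.18% and 12.1%), 6.13% in 15 pM replicate 5 and 6.08% in 15 pM replicate 1. The other samples had medians of 0.802% to 2.99% in DMSO, 1.97% to 3.64% at 15 pM and 0.620% to 2.04% at 150 pM. The summed level was 40921 CPM in DMSO replicate 3 against 362 to 1257 CPM in the other DMSO samples. At 15 pM it was 895 to 2927 CPM, and at 150 pM it was 18508 CPM in replicate 2, 3538 CPM in replicate 4 and 527 to 939 CPM in the other samples. Unlike the set of DMSO replicate 5, this set kept a median of at least 42 counts per gene in every sample.

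Ranked by CPM per kilobase of gene, 79 of the 118 genes were among the 1000 highest genes of DMSO replicate 3 and 41 among those of 150 pM replicate 2, against 10 in 150 pM replicate 4 and 0 in DMSO replicate 1. Across the 118 genes, log2(CPM + 0.1) in 150 pM replicate 2 and DMSO replicate 3 had a Pearson correlation of 0.87 and a Spearman correlation of 0.90. The ratio of these samples lay within 2-fold of its median for 108 of the 118 genes. With 15 pM replicate 1 the correlations were 0.89 and 0.85, and with 150 pM replicate 1, the sample with the lowest relative level, they were 0.38 and 0.37. With the samples not named here the Pearson correlation ran from 0.62 in 15 pM replicate 2 to 0.87 in DMSO replicate 4. It was 0.75 in DMSO replicate 1, where the set was also low. A high correlation was thus not particular to the samples where this set was high.

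**Figure D2:**
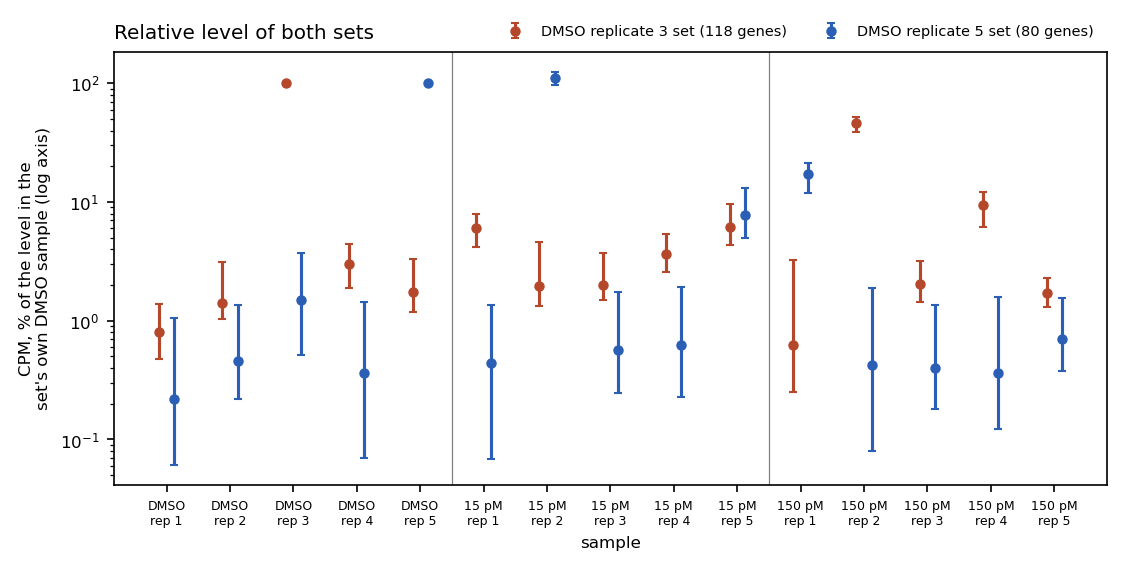
CPM of each gene as a percentage of its CPM in the set's own DMSO sample (log axis), for the 118 genes of the DMSO replicate 3 set and the 80 genes of the DMSO replicate 5 set, by sample. Points are medians over genes and bars run from the first to the third quartile over genes. The DMSO replicate 5 set was at 111% in 15 pM replicate 2 and 17.1% in 150 pM replicate 1, and the DMSO replicate 3 set was at 46.1% in 150 pM replicate 2 and 9.42% in 150 pM replicate 4.

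Here too some genes did not follow. In 4 of the 118 genes 150 pM replicate 2 was below 10% of the DMSO replicate 3 level, namely the members of rank 52, 62, 167 and 190. The member of rank 52 had 109.9 CPM in DMSO replicate 3, 3.05 CPM in 150 pM replicate 2 and 10.4 CPM in 150 pM replicate 4. The member of rank 62 had 392 CPM in DMSO replicate 3, 26.8 CPM in 150 pM replicate 2 and 40.5 CPM in 150 pM replicate 4. The member of rank 190 had 66.0 CPM in DMSO replicate 3, but 116.2 CPM in 15 pM replicate 2 and 0.290 CPM in 150 pM replicate 2.

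**Figure D3:**
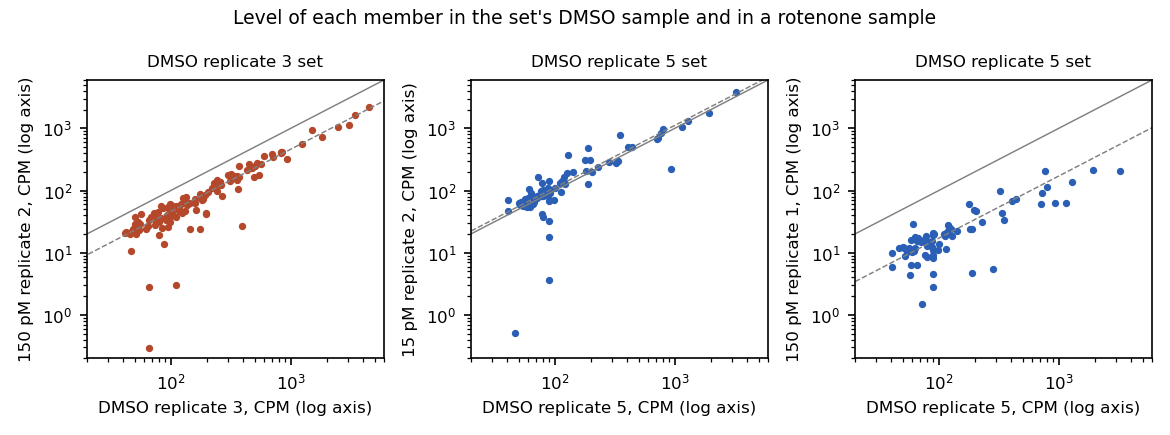
CPM of each member in a rotenone sample (vertical) against its CPM in the set's DMSO sample (horizontal), both on log axes. Left, 118 genes in 150 pM replicate 2 against DMSO replicate 3. Middle and right, 80 genes in 15 pM replicate 2 and in 150 pM replicate 1 against DMSO replicate 5. The solid line marks equal levels and the dashed line the median ratio, and most genes lie along the dashed line, with 108 of 118, 69 of 80 and 69 of 80 genes within 2-fold of it.

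The 2 members highest in DMSO replicate 1 behaved otherwise. Nfu_g_1_018858, at rank 180, had 151.6, 6.40, 4.28, 8.49 and 13.0 CPM in DMSO replicates 1 to 5. It had 12.7, 5.72, 6.0, 3.66 and 3.07 CPM in 15 pM replicates 1 to 5, and 98.4, 37.5, 121.7, 62.2 and 105 CPM in 150 pM replicates 1 to 5. Every 150 pM sample lay above every 15 pM sample, and in DMSO replicate 1 was above the 150 pM samples and the other 4 lay near the range of the 15 pM samples. Nfu_g_1_005737, at rank 49, had 97.3, 0.376, 1.06, 1.22 and 0.482 CPM in DMSO replicates 1 to 5. It had 0.796, 1.5, 1.8, 0.314 and 0.842 CPM in 15 pM replicates 1 to 5, and 10.499, 0.471, 9.08, 7.48 and 6.95 CPM in 150 pM replicates 1 to 5. In 150 pM, 4 samples were above all 15 pM samples and 1, replicate 2, was not.

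Joint variation was examined over the 10 rotenone samples, which the choice did not use, after the mean of each dose had been removed from log2(CPM + 1). The median Pearson correlation was 0.95 over the 3160 pairs of genes within the DMSO replicate 5 set and 0.83 over the 6903 pairs within the DMSO replicate 3 set. It was -0.29 over the 9440 pairs with 1 gene of each set, and 0.01 over all pairs of eligible genes. The share of pairs with a positive correlation was 100%, 97.9%, 23.9% and 50.4%. The median Spearman correlations were 0.88 within the DMSO replicate 5 set, 0.72 within the DMSO replicate 3 set and -0.25 between the sets. All pairs share the same libraries and scaling, so these values are a description. Removing the mean of a dose also pushes genes that peak in different samples of that dose towards a negative correlation. The negative sign between the sets is therefore not read as opposed variation. Without 15 pM replicate 4 the median Pearson correlations were 0.96, 0.86 and -0.31.

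Without 15 pM replicate 2 and 150 pM replicate 2 the median Pearson correlation over the other 8 samples was 0.93 within the DMSO replicate 5 set, 0.72 within the DMSO replicate 3 set and -0.29 between the sets. The Spearman medians were then 0.69, 0.62 and -0.24. 150 pM replicate 1 and 15 pM replicate 5, which were high for the DMSO replicate 5 set, and 150 pM replicate 4, which was high for the DMSO replicate 3 set, were still among these 8 samples. In the DMSO replicate 3 set the first quartile of the Pearson correlations was 0.16 over these 8 samples and 0.66 over all 10 rotenone samples.

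The members were variable in the rotenone groups as well. Their median CV was 0.943 at 15 pM and 1.62 at 150 pM, against 0.262 and 0.138 over all eligible genes. A CV below that in DMSO is not read as a difference, because the members were chosen at their DMSO extreme. The CV was above the median of the eligible genes in 197 of 200 members at 15 pM and in 200 of 200 at 150 pM. It was above 1 in 91 members at 15 pM and 183 at 150 pM. These are 45.5% and 91.5%, against 2.01% and 2.17% of eligible genes. The eligible genes are not matched to the members in level, since members could reach the minimum of 10 CPM through 1 DMSO sample. At 15 pM 75 of the 200 members had a mean under 10 CPM, against 511 of the 9504 eligible genes. At 150 pM it was 102 members, against 586 eligible genes. What part their level has in these CVs and in the counts below was not tested.

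When the 200 most variable eligible genes were listed in each rotenone group in the same way, 96 members were on the 15 pM list and 181 on the 150 pM list. These are 48% and 90.5% of either list, where the lists hold 2.1% of the eligible genes. That share is over eligible genes not matched to the members in level. The 2 rotenone lists shared 95 genes, and 86 genes were on all 3 lists. Members on neither rotenone list numbered 9. By set, 77 of the 80 genes of the DMSO replicate 5 set but 19 of the 118 genes of the DMSO replicate 3 set were on the 15 pM list, and 69 of 80 and 112 of 118 were on the 150 pM list. The overlaps changed by over 1.5 times when single DMSO samples were left out of the choice. When the members were chosen again without DMSO replicate 5, 46 were on the 15 pM list, and when they were chosen without DMSO replicate 3, 112 were on the 150 pM list. Each change follows in part from the choice, since the sample left out was the one in which a whole set was highest.

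**Figure D4:**
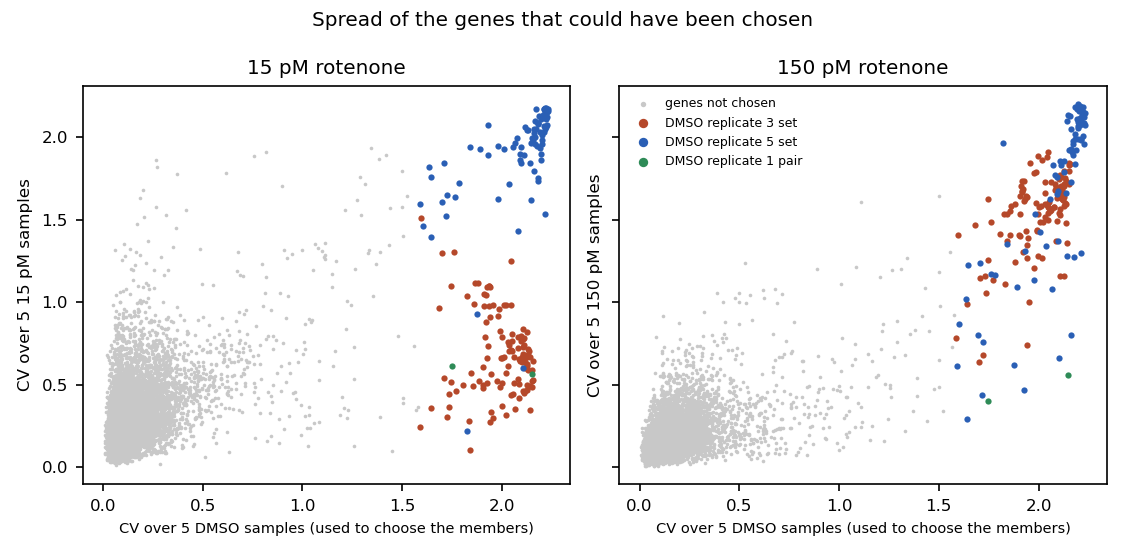
CV over the 5 samples of 15 pM (left) and of 150 pM rotenone (right) against the CV over the 5 DMSO samples, for the 9504 eligible genes. The DMSO CV chose the members, so the separation along the horizontal axis is by construction. At 15 pM the DMSO replicate 5 set had a median CV of 1.96 and the DMSO replicate 3 set of 0.663, and at 150 pM the medians were 1.87 and 1.58.

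In most members the spread at 150 pM came from 1 sample, as it did in DMSO. A sample was counted as apart from its group when its gap to the nearest other sample exceeded 0.71 of the range of the group. This is Dixon's 95% critical value for 5 values, which flags about 5% of groups when values are normally distributed around 1 level. At 15 pM a sample was apart in 95 members (47.5%) against 17.4% of eligible genes, and at 150 pM in 168 members (84%) against 6.9%. Of the 1651 eligible genes marked at 15 pM, 917 were high in replicate 4, where 0 members were marked. In the DMSO replicate 5 set the sample apart was 15 pM replicate 2 in 74 genes (92.5%) and 150 pM replicate 1 in 72 genes (90%). In the DMSO replicate 3 set it was 150 pM replicate 2 in 94 genes and 150 pM replicate 4 in 2, and at 15 pM it was replicate 5 in 20 genes and replicate 2 in 1. These were 81.4% of this set at 150 pM but 17.8% at 15 pM, against 17.4% of all eligible genes at 15 pM. The shares at 15 pM rest on different samples. A high replicate 5 marked 20 of the 118 genes, against 218 of the 9504 eligible genes. A sample apart on the low side was found in 0 members.

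The comparison of 150 pM with 15 pM rotenone asked whether any member differed between the doses, and it used no DMSO mean. The DMSO samples did enter the shared estimate of each gene's spread, and the members were chosen for a large DMSO spread. A low count of called members is thus favoured by the choice. In a fit of only these 2 groups 1 member was called. Genes were tested by edgeR's quasi-likelihood test over all 18253 genes with sufficient counts, and called at an adjusted p under 0.05. Of the 200 members 197 entered the test. The test called 0 of them, where 1.7% of all genes tested were called. At an unadjusted p under 0.05 there were 6 members, 3.05% of those tested, against 22.7% of all genes tested. The DESeq2 Wald test called 1 of the 63 members to which it gave an adjusted p, Nfu_g_1_018858, where it called 9.02% of all genes with an adjusted p. It gave none for the other 137 members, in this comparison or in those with DMSO. Among these were the members of highest CV in both sets, at ranks 1 and 42. The 63 members thus do not stand for all 200. The samples of the doses did not overlap in 1 of the 200 members, against 5.45% of all genes tested, and this was again Nfu_g_1_018858.

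Fold changes of the members came with wide errors. In the DMSO replicate 3 set the median log2 fold change was 1.32, with 113 of 118 genes higher at 150 pM and a median standard error of 1.36. In the 77 tested genes of the DMSO replicate 5 set the median was -2.50, with 76 lower at 150 pM and a median standard error of 1.96. Over all genes tested the median log2 fold change was -0.03 and the median standard error 0.225. In each set 1 sample lay far above the others of its dose. The summed level of the DMSO replicate 3 set at 150 pM was 18508 CPM in replicate 2 and 527 to 3538 CPM in the other 4, and that of the DMSO replicate 5 set at 15 pM was 21291 CPM in replicate 2 and 193 to 1419 CPM in the other 4.

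Nfu_g_1_018858 had the smallest p of all members between the doses. It averaged 85.0 ± 34.3 CPM at 150 pM and 6.23 ± 3.83 CPM at 15 pM (SD, n = 5 each), which was 3.79 ± 0.93 (SE) as a log2 fold change. It was higher in 5 of 5 samples at 150 pM, but its adjusted p of 0.0524 by edgeR did not pass the threshold. It passed in 5 of 20 alternatives, with adjusted p from 0.000986 to 0.117 and log2 fold changes from 3.63 to 4.22. It passed when DMSO replicate 1 was left out (0.00389), and likewise for DMSO replicate 3 (0.0482) and 15 pM replicate 1 (0.0487), in the fit of only these 2 groups (0.0116) and by DESeq2. DMSO replicate 1, at 151.6 CPM, was in neither group compared but entered the shared estimate of the spread.

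The other members with the smallest p in each direction did not pass either. Nfu_g_1_005737 averaged 6.89 ± 3.85 CPM at 150 pM and 1.05 ± 0.595 CPM at 15 pM (SD, n = 5 each), or 2.74 ± 1.39 (SE) as a log2 fold change, with adjusted p = 0.256 by edgeR. Nfu_g_1_012304 and Nfu_g_1_012334 belong to the DMSO replicate 5 set and had the smallest p among members that were lower at 150 pM. Nfu_g_1_012304 had 1.52, 0.109, 0.542, 0.435 and 0.695 CPM in 150 pM replicates 1 to 5, and 0.417, 164.8, 1.38, 0.707 and 9.56 CPM in 15 pM replicates 1 to 5. In DMSO replicates 1 to 5 it had 0.358, 1.09, 0.275, 0.286 and 73.2 CPM. Between the doses this gave -5.72 ± 2.07 (SE) on the log2 scale, with adjusted p = 0.125 by edgeR. Nfu_g_1_012334 had 4.64, 0.0363, 0.587, 0.435 and 1.65 CPM in 150 pM replicates 1 to 5, and 0.114, 476, 1.98, 1.10 and 25.2 CPM in 15 pM replicates 1 to 5. It had 0.107, 2.97, 0.471, 0.408 and 191 CPM in DMSO replicates 1 to 5, and between the doses -6.08 ± 2.39 (SE) on the log2 scale, with adjusted p = 0.151 by edgeR. For both genes the doses overlapped, and 15 pM replicate 2 was the highest of the 15 samples.

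**Figure D5:**
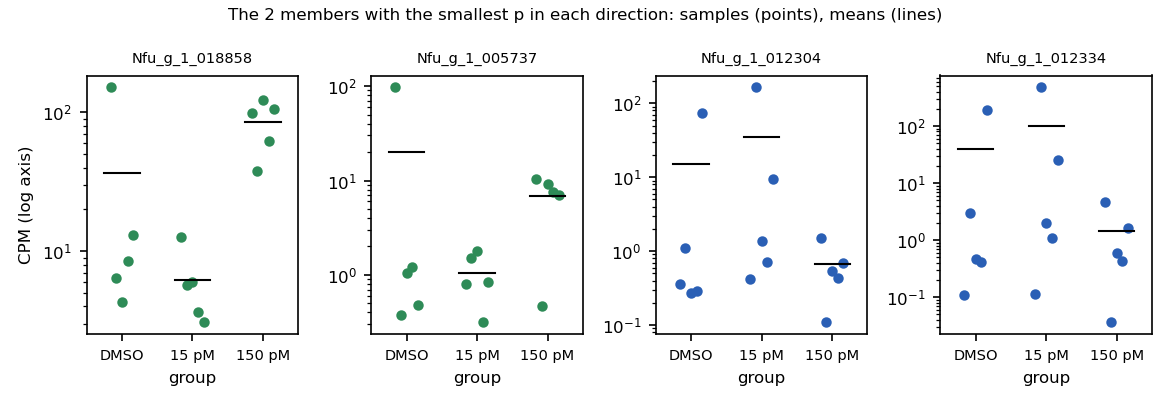
CPM (log axis) of the 2 members with the smallest p between the doses among those higher at 150 pM and the 2 among those lower, in the 5 samples of each group (points, replicates 1 to 5 from left to right) with the group mean (line). The 5 samples of 150 pM lie above those of 15 pM for Nfu_g_1_018858, and for Nfu_g_1_012304 and Nfu_g_1_012334 the means of DMSO and 15 pM are set by 1 sample each.

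The comparisons of each dose with DMSO use the samples that chose the members, so their counts are given without a reading. At 15 pM edgeR called 0 of the 197 tested members, where it called 1.75% of all genes tested, and 9 members (4.57%) had an unadjusted p under 0.05, against 21.4% of all genes tested. DESeq2 called 8.88% of all genes with an adjusted p, and 2 of the 63 members that had one, both lower at 15 pM. They were Nfu_g_1_018858 (adjusted p = 0.0357) and the member of rank 174 (adjusted p = 0.0149). At 150 pM edgeR called 0 of 197, where it called 0.104% of all genes tested, and 3 members (1.52%) had an unadjusted p under 0.05, against 15.1% of all genes tested. DESeq2 called 0 of 63 members there, and 3.28% of all genes with an adjusted p. Without DMSO replicate 1, Nfu_g_1_018858 was called higher at 150 pM than in DMSO (adjusted p = 0.0145 by edgeR), against 0.525 with it, the adjusted p over its 20 alternatives being 0.0145 to 0.830.

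The mean levels by group followed the samples already described. The median over the DMSO replicate 3 set of a gene's mean level was 27.6 CPM in DMSO, 6.75 CPM at 15 pM and 15.2 CPM at 150 pM. For the DMSO replicate 5 set it was 18.4 CPM in DMSO, 22.2 CPM at 15 pM and 4.23 CPM at 150 pM. Over all eligible genes these medians were 27.0, 28.5 and 26.9 CPM. Only DMSO had to reach a mean of 10 CPM, so lower levels in the other groups are favoured by the choice.

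Gene length, which the choice did not use, was derived from the deposited RPKM and counts. It had a median of 2196.5 bases in the members, with quartiles of 1297.5 and 3706.75, against 3443 bases (quartiles 1902 and 5616) in the eligible genes. The medians were 2000.5 bases in the DMSO replicate 3 set and 2645.5 bases in the DMSO replicate 5 set. Some members stood beside each other in the table. Of 154 pairs of neighbouring eligible rows with at least 1 member, 21 held 2 members (13.6%), and in 17 of these both belonged to 1 set. For the 15 pM and 150 pM lists of variable genes the share was 7.64% and 12.6%. These lists have 96 and 181 genes in common with the members, so they are not a background. The members are 2.1% of the eligible genes, but this is a share of genes and not of pairs. It is no background for the 13.6% either. Whether the row order follows the genome is not known.

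The limit of 200 genes fell within a continuous series of CVs. The last 2 members had CVs of 1.59 and 1.59 in DMSO, and the first 2 genes not chosen had CVs of 1.58 and 1.57. Among the next 200 genes by CV, DMSO replicate 5 was highest for 102, DMSO replicate 3 for 53, DMSO replicate 1 for 30, DMSO replicate 2 for 14 and DMSO replicate 4 for 1. The pattern also extended to genes too low to be chosen. Of 6902 genes with a DMSO mean of 1 to 10 CPM, 213 had 1 DMSO sample over 10-fold above the next, which was DMSO replicate 5 in 110, DMSO replicate 3 in 90 and DMSO replicate 1 in 13. Of the 110 genes 107 were highest in 15 pM replicate 2 among the 15 pM samples and 105 in 150 pM replicate 1 among the 150 pM samples. Of the 90 genes 87 were highest in 150 pM replicate 2 among the 150 pM samples. The shares over all 6902 genes are not given here. Over the eligible genes, which have higher levels in DMSO, these 3 samples were highest in their group for 12.8%, 16% and 27.5%.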

How the data were processed

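RNA-seq read counts of 15 skin samples were analysed, 5 each of DMSO, 15 pM and 150 pM rotenone, grouped by the labels and numbered in the order of registration. Libraries were made with the TruSeq RNA version 2 kit, which does not mark the strand, per the labels' protocols, so overlapping antisense genes cannot be told apart. Per the submitters' processing notes, the tools were CASAVA 1.8.2, STAR 2.4.1d and featureCounts 1.4.6-p4. Genome build and counting options: not given in the sources used here. Counts of near-identical gene copies are uncertain. The authors deposited raw counts and RPKM for the same 26739 genes. The deposited RPKM were divided by library totals repeated down the rows: under that reading 100% of 3936 well-covered genes had 1 length in all samples within 1%. They served only to derive gene lengths.

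CPM were computed from the counts with TMM factors in edgeR 4.0.16 (R 4.3.3) over all genes. Eligible genes had a DMSO mean of at least 10 CPM, without the 100 highest, and members were grouped by the DMSO sample in which they were highest. Tests used edgeR's quasi-likelihood test in 1 fit of all 15 samples without covariates, on the 18253 genes kept by filterByExpr (minimum count 10, minimum total 15), with Benjamini-Hochberg adjustment over those genes and a threshold of 0.05. The standard error is the log2 fold change divided by the square root of the F statistic. Alternatives were other scaling, no filter, only 2 groups, DESeq2 1.42.0, leaving out samples, and other settings of the choice. The steps were tested on simulated data. The members and lists were chosen with earlier results of these data known. By identifier, the 2 members with the smallest p in each direction between the doses are given, and others by rank of CV: the first of each set, those just inside and outside the limit, and, chosen after their values were seen, those that left the pattern of their set.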

Additional observations from a re-analysis of the deposited data

Results flagged for a closer look

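The 3 groups of 5 samples were examined for the summed level of each set and for the 4 members given by identifier. In DMSO 1 sample lay far from the others in 6 of 6 cases, which the choice of the members by their DMSO spread favours, so these are a description. In the rotenone groups this was so in 5 of 12 cases, and 2 of these are single genes of the DMSO replicate 5 set, whose sum is among the other 3. Chance flags about 5% of groups of normally distributed values. The same measure marked 17.4% of all eligible genes at 15 pM, mostly by a high replicate 4, and 6.9% at 150 pM. The summed level of the DMSO replicate 3 set was 40921 CPM in DMSO replicate 3, and 18508 CPM in 150 pM replicate 2. The summed level of the DMSO replicate 5 set was 19723 CPM in DMSO replicate 5, 21291 CPM in 15 pM replicate 2 and 2517 CPM in 150 pM replicate 1. Nfu_g_1_018858 had 151.6 CPM and Nfu_g_1_005737 had 97.3 CPM in DMSO replicate 1. Nfu_g_1_012304 had 73.2 CPM in DMSO replicate 5 and 164.8 CPM in 15 pM replicate 2. Nfu_g_1_012334 had 191 CPM in DMSO replicate 5 and 476 CPM in 15 pM replicate 2. The rotenone samples named here were not used to choose the members.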

How the results depend on the processing

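Which genes are members depends on DMSO replicates 3 and 5 and on the minimum level. Of the 200 members 85 were chosen again without DMSO replicate 3 and 119 without DMSO replicate 5, a range of 85 to 181 over the 5 samples left out, and 121 with a minimum mean of 20 CPM. These counts follow largely from the choice. Of the members 118 were highest in DMSO replicate 3 and 80 in DMSO replicate 5, and members with a mean under 20 CPM could not be chosen at that minimum. Under other scaling, with the most abundant genes kept or by the SD of log2(CPM + 1), 189 to 200 were chosen again. Members on the 15 pM list were 46 to 127 and on the 150 pM list 112 to 182 when single samples were left out, the lowest values being without DMSO replicate 5 and without DMSO replicate 3. The number called between the doses was 0 to 1 over these fits, 1 with only the 2 groups and 1 by DESeq2. For 15 pM against DMSO it was 0 to 0, and 2 by DESeq2, and for 150 pM against DMSO 0 to 1. Without DMSO replicates 3 and 5, 15 pM replicate 2 and 150 pM replicate 2 together, a setting chosen after seeing the data, it was 0 in each comparison. The titles give DMSO and 15 pM samples the numbers 1 to 5. Deviations of same-numbered samples from their group means correlated above 0.1 in 2 of 5 pairs, and 2 of the 5 samples at 15 pM correlated best with their own number, so the numbers were not taken to pair the samples. With them as a replicate block 0 members were called. No paired fit could be made for the other comparisons, since the 150 pM samples carry other numbers. The median standard error of the log2 fold change between the doses was 1.45 in the members and 0.225 over all genes tested, which limits the differences that could be called.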
